A study of Mus musculus with 18 samples.

Results

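The 10 genes described here make, sense, import, export or store iron in hepatocytes or report the signal that drives the hepcidin gene: Hamp, Hamp2, Tfr2, Hfe, Id1, Smad7, Tfrc, Slc40a1, Fth1 and Ftl1. They were taken as a list of symbols by a rule that uses no measured value, although the list was drawn up with earlier results of these data known. Each symbol matched 1 identifier among the 28030 genes of the table. All 10 were among the 12477 genes that passed the filter on low counts and were tested.

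RNA was sequenced from hepatocytes of 12-week-old wild-type C57BL/6J male mice on normal chow. Digitonin perfusion opens the cells of one side of the liver lobule, so that pericentral (PC, near the central vein) or periportal (PP, near the portal vein) hepatocytes can be collected apart. All mice were first trained for 3 days to fast for 16 h overnight and eat during 8 h of daytime, and all drank water with 20% sucrose while fed on the last day. Fed mice were killed after 4 h of feeding at clock hour 13, mice fasted for 8 h at clock hour 21, and mice fasted for 24 h at clock hour 13. The 2 zones and 3 states gave 6 groups of 3 libraries each. The 8 h fast and the clock hour cannot be told apart, whereas the 24 h fast and the fed state share theirs. It is not stated that replicates were separate mice, so p-values measure the spread between these libraries, which may be partly technical. Library totals lay between 1.84e+07 and 2.64e+07 estimated counts, and levels are given as CPM, the count scaled to library size and composition.

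Hepcidin, the peptide encoded by Hamp, is secreted by hepatocytes and makes cells degrade ferroportin (Slc40a1), the only known exporter of iron, so that more hepcidin means less iron released into plasma. Hepatocytes raise Hamp when bone morphogenetic proteins (BMPs) from sinusoidal endothelium act through SMAD proteins, with Hfe and Tfr2 as sensors of transferrin-bound iron, and when IL-6 acts through STAT3 in inflammation. Inside the cell, iron regulatory proteins bind short RNA hairpins called iron-responsive elements. They stabilise Tfrc mRNA, which carries the elements in its 3′ UTR, and block translation of ferritin and ferroportin mRNAs, which carry one in the 5′ UTR.

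Hamp lies at chr7:30942368-30944032 and Hamp2 at chr7:30922372-30924681 (GRCm38, both on the minus strand). The stretches of their promoters that hold the BMP and STAT3 elements are shown because these are the routes by which the hepcidin gene is known to be regulated and because the pair is so alike. Capitals mark the BMP element (GGCGCC in Hamp) and the STAT site (TTCNNNGAA), and bases were taken from RefSeq on GRCm38.p6. The Hamp2 stretch lies upstream of the RefSeq start of that gene but inside the longer interval given above, which another annotation starts further upstream.
Hamp, chr7:30944099-30944158, minus strand: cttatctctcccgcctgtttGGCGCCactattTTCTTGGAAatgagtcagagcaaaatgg
Hamp2, chr7:30924248-30924307, minus strand: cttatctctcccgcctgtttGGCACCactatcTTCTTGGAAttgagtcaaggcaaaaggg
Counted from base 1 of the BMP element, Hamp2 differs from Hamp by G4A, and the STAT site carries no substitution. The 300-base promoter windows of the pair were 92.9% identical and their transcripts 94.6% identical. Of 32851 mouse promoter windows of that length, 11.9% held GGCGCC and 8.3% held TTCNNNGAA on either strand, so a match is a description of sequence only. A window was found for 7 of the 10 genes (all but Slc40a1, Id1 and Smad7).

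The iron-responsive elements are shown because iron regulatory proteins act through them on 4 of the 10 genes, Tfrc, Slc40a1, Fth1 and Ftl1. They were searched for in annotated UTRs (GENCODE vM21, GRCm38) as a hairpin with a bulged C, 5 paired bases, the loop CAGTGN and at least 4 of 6 lower pairs, and capitals mark the bulged C and the loop.
Tfrc 3′ UTR, chr16:32631219-32631247: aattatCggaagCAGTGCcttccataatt
Tfrc 3′ UTR, chr16:32631598-32631626: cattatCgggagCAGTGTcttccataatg
Tfrc 3′ UTR, chr16:32631663-32631691: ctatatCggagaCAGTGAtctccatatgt
Tfrc 3′ UTR, chr16:32631710-32631738: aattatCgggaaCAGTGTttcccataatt
Slc40a1 5′ UTR, chr1:45925465-45925493, minus strand: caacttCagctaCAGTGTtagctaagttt
Fth1 5′ UTR, chr19:9982732-9982760: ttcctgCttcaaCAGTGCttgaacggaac
Ftl1 5′ UTR, chr7:45459779-45459807, minus strand: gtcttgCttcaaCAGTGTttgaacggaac
A match was present in 23 of 21877 protein-coding genes (0.105%) and among the 10 genes Tfrc held 4 elements, and Slc40a1, Fth1 and Ftl1 held 1 each.

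The zone labels were checked first. A pericentral list (Cyp2e1, Cyp1a2, Glul, Oat) summed to 9305 to 18310 CPM in pericentral and 420 to 2044 CPM in periportal libraries, and a periportal list (Cyp2f2, Hal, Gls2, Sds) to 277.8 to 1793 and 3134 to 5413 CPM. Markers of Kupffer cells and leukocytes summed to 0.372 to 20.4 CPM, of sinusoidal endothelium to 4.25 to 35.1 CPM of stellate cells to 0.696 to 14.3 CPM, of cholangiocytes to 19.3 to 56.7 CPM and of erythroid cells to 32.0 to 92.2 CPM. In the fed state the Kupffer, endothelial, stellate, cholangiocyte and erythroid sums were each higher in every periportal than in every pericentral library. The cholangiocyte sum was so at 8 h and at 24 h as well, where the other sums overlapped between zones. In bulk RNA, fewer cells of a type and less RNA per cell cannot be told apart. In 3 libraries the acute phase gene Saa1 exceeded 1000 CPM: pericentral fed replicate 3 (2096), pericentral 8 h replicate 1 (3234) and periportal 24 h replicate 3 (1611). The highest value among the other 15 was 271.7 CPM. Saa1 is a target of IL-6 and STAT3, as is Hamp, so results on the 10 genes that rest on these libraries are also given without the 3 of them. Of 30 pathway genes named below for a call, 27 were also called without them, and Il6st, Hscb and Slc25a28 were not.

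**Figure D1:**
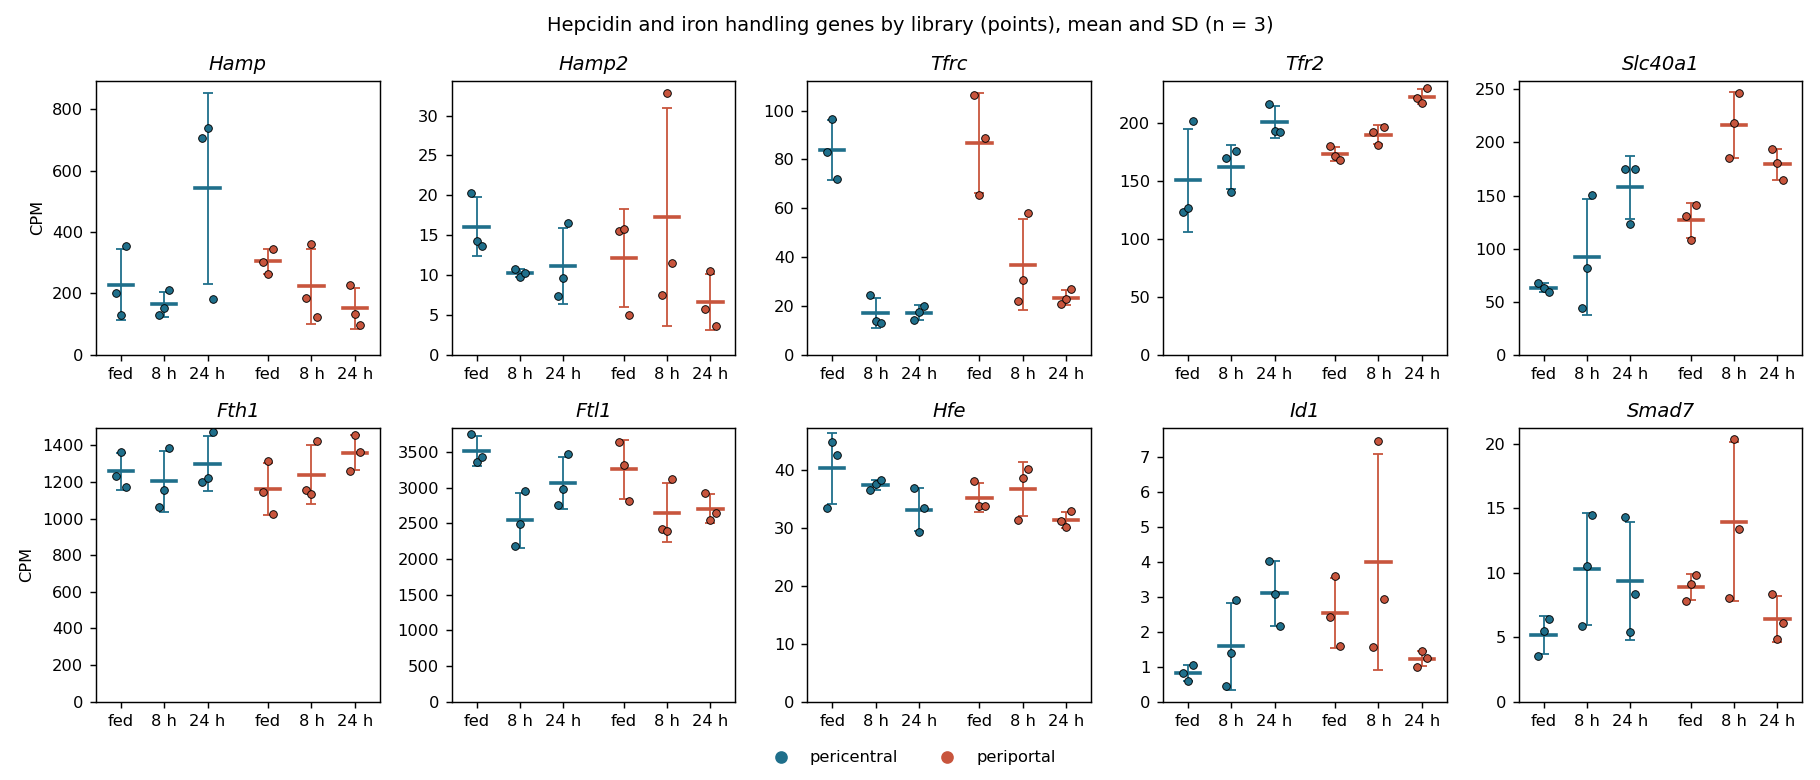
CPM (y axis) of the 10 genes in each of the 18 libraries (points) by state, pericentral in blue and periportal in red, with the mean (bar) and SD (whiskers) of 3 libraries. Tfrc fell from 83.8 and 86.8 CPM in fed pericentral and periportal cells to 17.2 and 23.4 CPM after 24 h, while Hamp spread from 182 to 738 CPM within the pericentral 24 h group.

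Among the 10 genes, Tfrc showed the largest called change. Tfrc (chr16:32608920-32632794) encodes transferrin receptor 1, which takes up transferrin-bound iron. Fed pericentral libraries held 82.9, 96.6 and 72.0 CPM of Tfrc and fed periportal ones 106.2, 65.4 and 88.9 CPM. After 8 h of fasting the pericentral values were 24.3, 13.9 and 13.1 CPM and the periportal ones 22.1, 30.4 and 57.9 CPM. After 24 h they were 14.1, 17.6 and 20.0 CPM in pericentral and 20.6, 22.6 and 26.8 CPM in periportal cells. Every fasted library lay below every fed library, and the closest fasted one was periportal 8 h replicate 3. By edgeR's quasi-likelihood test, pericentral Tfrc at 8 h fell by 2.29 on the log2 scale (SE 0.33, adjusted p = 0.000292). Its 24 h value fell by 2.28 (SE 0.33, adjusted p = 0.00022). The periportal decline was smaller at 8 h, where Tfrc fell by 1.24 (SE 0.31, adjusted p = 0.0159). By 24 h periportal Tfrc fell by 1.89 from fed (SE 0.32, adjusted p = 0.000954).

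The periportal 8 h call of Tfrc was lost without periportal 8 h replicate 1 (log2 fold change -0.97), without periportal 8 h replicate 2 (-1.12) or without periportal fed replicate 1 (-1.07), and in a fit of those 2 groups only. Its adjusted p lay between 0.000563 and 0.103 over the 27 alternatives, in each of which the other Tfrc calls held. At 8 h the periportal mean of Tfrc was 36.8 ± 18.7 CPM (SD, n = 3) against 17.1 ± 6.27 CPM (SD, n = 3) in pericentral cells, a log2 difference of 1.10 (SE 0.32) that missed the threshold (edgeR adjusted p = 0.0513). The test of whether the 8 h change itself differed between zones gave a log2 difference of 1.05 (unadjusted p = 0.0312, edgeR adjusted p = 0.909). Tfrc was called higher in periportal cells at 8 h without the 3 libraries high in Saa1 (1.45, adjusted p = 0.035), without pericentral 8 h replicate 1 (1.44), without periportal 8 h replicate 1 (1.35) and by DESeq2 (adjusted p = 0.00409), with adjusted p up to 0.257 in the other alternatives. Between 8 h and 24 h the log2 fold change of Tfrc was 0.01 in pericentral and -0.65 in periportal cells, neither called. With the zones averaged, the decline of Tfrc at 8 h was 3.401-fold (SE 0.23 on the log2 scale, edgeR adjusted p = 4.57e-05), and that at 24 h was 4.25-fold (SE 0.23, adjusted p = 8.44e-06).

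Slc40a1 (chr1:45908068-45926523, minus strand), the iron exporter ferroportin, moved the other way. In fed pericentral cells Slc40a1 stood at 67.6, 63.0 and 59.2 CPM, and in fed periportal cells at 130.4, 108.4 and 140.9 CPM. After 8 h the pericentral libraries read 43.6, 81.9 and 150.9 CPM and the periportal ones 185, 218 and 247 CPM. After 24 h the values were 175, 124 and 175 CPM in pericentral and 194, 180.4 and 164 CPM in periportal cells. The zones did not overlap in the fed state or at 8 h, and they overlapped at 24 h. In order of mean level, periportal 8 h (217 ± 30.8 CPM) was followed by periportal 24 h (179 ± 14.6), pericentral 24 h (158 ± 29.6), periportal fed (127 ± 16.6), pericentral 8 h (92.1 ± 54.4) and pericentral fed (63.3 ± 4.19, SD, n = 3 each). Neighbours in this order differed by more than the larger of their SDs in the case of periportal 8 h against periportal 24 h and of pericentral 24 h against periportal fed, and by less in the others.

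Averaged over the 3 states, Slc40a1 was higher in periportal cells by 0.81 on the log2 scale (SE 0.17, edgeR adjusted p = 0.00389). The difference was 1.23 (SE 0.30, adjusted p = 0.022) at 8 h, 1.001 (SE 0.30, adjusted p = 0.0578) in the fed state and 0.19 (SE 0.30, adjusted p = 0.822) at 24 h. The 8 h call of Slc40a1 was lost without pericentral 8 h replicate 2 (1.14), without periportal 8 h replicate 2 (1.23) or without periportal 8 h replicate 3 (1.13), without the filter or in a fit of those 2 groups only, with adjusted p from 0.000368 to 0.206 over 27 alternatives. Without the 3 libraries high in Saa1 the 8 h difference was 0.90 (adjusted p = 0.0432). The fed difference was called in 5 of 27 alternatives, with adjusted p from 0.000713 to 0.164. DESeq2 called it (adjusted p = 0.0072), as did edgeR in a fit of the 2 fed groups only (adjusted p = 0.000713). It was also called without pericentral 8 h replicate 1 or replicate 3, and without the 3 libraries high in Saa1 (0.95, adjusted p = 0.0278). Slc40a1 rose by 1.32 (SE 0.30, adjusted p = 0.00644) from fed to 24 h in pericentral cells, and this call held in all 27 alternatives, as did the rise of 0.91 (SE 0.21, adjusted p = 0.00406) averaged over the zones. In pericentral libraries the sum of periportal markers rose too, from 277.8 to 456.2 CPM fed to 465.9 to 597.9 at 8 h and 806.3 to 1793 at 24 h. Their sum of pericentral markers overlapped between fed (12650 to 14450 CPM) and 24 h (10840 to 18310 CPM). The part of these zone markers in the Slc40a1 values was not tested. Periportal Slc40a1 differed from fed by 0.78 after 8 h (SE 0.30, adjusted p = 0.104) and by 0.50 after 24 h (SE 0.30, adjusted p = 0.273). The 8 h difference was called in 5 of 27 alternatives, among them without pericentral 8 h replicate 1 or replicate 3, with adjusted p from 0.0135 to 0.256. The test of the difference between zones in the 24 h change of Slc40a1 missed the threshold (log2 difference -0.81, SE 0.42, unadjusted p = 0.0744, edgeR adjusted p = 0.694).

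The 8 h values of Slc40a1 rested on a spread of pericentral libraries. Averaged over the zones it rose by 0.66 at 8 h (SE 0.21, edgeR adjusted p = 0.0324), a call lost in 10 of 27 alternatives with adjusted p from 0.000565 to 0.0732. Without pericentral 8 h replicate 3, the highest of its group, that value was 0.38, and the pericentral change from 8 h to 24 h became a called 1.32 (adjusted p = 0.00264, range 0.00264 to 0.368) in place of 0.78. Without pericentral 8 h replicate 1, the lowest and high in Saa1, the pericentral change from fed to 8 h was a called 0.88 (adjusted p = 0.014, range 0.014 to 0.987) in place of 0.54.

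Kupffer cells also make much ferroportin, and their markers were set beside Slc40a1. No gene of the 9-gene Kupffer and leukocyte list was at 0 in all libraries, and its sum was 1.14 to 1.91 CPM in pericentral fed, 0.372 to 2.63 in pericentral 8 h, 1.95 to 4.93 in pericentral 24 h, 4.33 to 7.64 in periportal fed, 0.767 to 11.04 in periportal 8 h and 1.79 to 20.4 CPM in periportal 24 h libraries. In the fed state the sum was thus higher in every periportal library, as Slc40a1 was. Among the periportal 8 h libraries the sum (0.767, 7.60 and 11.04 CPM) and Slc40a1 (185, 218 and 247 CPM) went up in the same order. Among the periportal 24 h libraries they went in opposite order, the sum at 1.79, 8.81 and 20.4 CPM and Slc40a1 at 194, 180.4 and 164 CPM. The part of these markers in the Slc40a1 values was not tested. In each of the 3 groups with a library high in Saa1, that library had the lowest Slc40a1 of the group (59.2, 43.6 and 164 CPM), a comparison made after the values were seen and not tested.

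Hamp, the hepcidin gene, was highest in 2 of the 3 pericentral libraries of the 24 h fast, and its spread within groups was wide. In fed mice Hamp stood at 201, 130.2 and 354 CPM in pericentral and at 304, 264 and 346 CPM in periportal libraries. After 8 h the values were 128, 153 and 210.3 CPM in pericentral and 186, 359.8 and 122 CPM in periportal cells. After 24 h they were 706, 738 and 182 CPM in pericentral and 226, 134 and 95.6 CPM in periportal cells. Replicates 1 and 2 of the pericentral 24 h group lay above every other library, and replicate 3 lay within the range of the fed and 8 h groups. The mean was highest in pericentral 24 h cells (542 ± 312 CPM) and lowest in periportal 24 h cells (152 ± 67.1 CPM, SD, n = 3 each).

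None of the Hamp differences passed the threshold. At 24 h the periportal minus pericentral log2 difference of Hamp was -1.84 (SE 0.54, unadjusted p = 0.00475, edgeR adjusted p = 0.0821). Within pericentral cells Hamp differed by 1.25 (SE 0.54, adjusted p = 0.116) between 24 h and fed and by 1.73 (SE 0.54, adjusted p = 0.0631) between 24 h and 8 h, and within periportal cells by -1.01 (SE 0.53, adjusted p = 0.217) between 24 h and fed. The difference of these 24 h changes was -2.25 (SE 0.76, unadjusted p = 0.0102, edgeR adjusted p = 0.489). In the fed state and at 8 h the zone differences of Hamp were 0.42 and 0.44 (SE 0.53 each, not called). With 1 library left out at a time they ranged from 0.13 to 0.88 (fed, the highest without pericentral fed replicate 3) and from -0.09 to 0.74 (8 h, the lowest without periportal 8 h replicate 2), and without the 3 libraries high in Saa1 the fed value was 0.88.

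The Hamp calls changed without pericentral 24 h replicate 3 and by DESeq2. Without that library, the 24 h zone difference was -2.25 (adjusted p = 0.0235, range over 28 alternatives 0.00996 to 0.269), the change from fed 1.66 (adjusted p = 0.0307, range 0.0307 to 0.306) and the change from 8 h 2.14 (adjusted p = 0.0242, range 0.0105 to 0.199). DESeq2, with all libraries kept, called the zone difference (-1.83, adjusted p = 0.00996) and the change from 8 h (1.73, adjusted p = 0.0105). Pericentral 24 h replicate 2, the library with 738 CPM of Hamp, had the highest sum of periportal markers of any pericentral library (1793 CPM, against 868.7 in replicate 1 and 806.3 in replicate 3), and without it the zone difference was -1.55. The part of these markers in the result was not tested. Without the 3 libraries high in Saa1, the zone difference was -1.60 and the pericentral change from fed 1.71, neither called. Among those 3, Hamp was the highest of its group in pericentral fed replicate 3 and the lowest of its group in pericentral 8 h replicate 1 and periportal 24 h replicate 3.

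Hamp2, a second hepcidin gene of the mouse, ranged from 3.63 to 32.9 CPM with a median of 10.6 over the 18 libraries. Its highest value, like the highest periportal Hamp, was in periportal 8 h replicate 2. No comparison of Hamp2 was called in the main fit, and its log2 fold changes lay between -1.37 (periportal 24 h against 8 h, adjusted p = 0.169) and 1.16 (difference of the 8 h changes). An edgeR fit of the pericentral fed and 8 h groups only called Hamp2 lower at 8 h (-0.65, adjusted p = 0.0362). Over 27 alternatives the adjusted p of that change ranged from 0.0362 to 0.74. In pericentral cells after 24 h, Hamp2 was at 7.31, 9.60 and 16.5 CPM, so its highest library was the one lowest in Hamp. Of the 31-base words in Hamp transcripts, 33.7% also occur in Hamp2, so the split of reads between the pair is uncertain. With the counts of Hamp2 added to those of Hamp, no call changed. Hamp2 held 79 to 739 counts a library against 2079 to 20063 for Hamp, so the sum could hardly move Hamp. It does not resolve the level of Hamp2, which was not tested in this way.

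**Figure D2:**
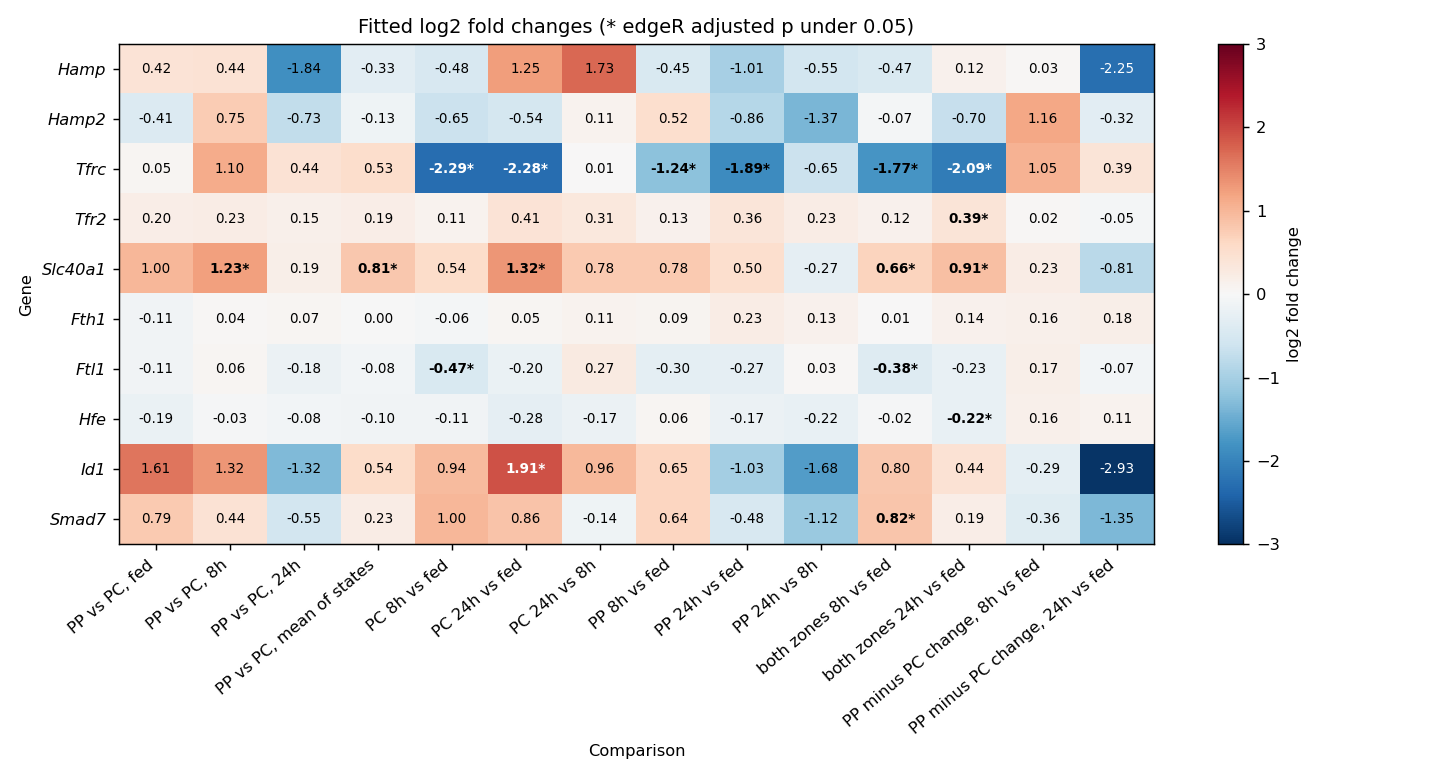
Fitted log2 fold changes (colour and printed value) of the 10 genes (rows) in the 14 comparisons (columns), where positive zone values are higher in periportal cells and asterisks mark an edgeR adjusted p under the threshold. Tfrc was called lower in every comparison of a fasted with the fed state, whereas no value of Hamp, Hamp2 or Fth1 was called.

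The iron sensors changed little. Tfr2 (chr5:137569840-137587481), transferrin receptor 2, senses transferrin saturation in hepatocytes. Tfr2 stood at 123, 127 and 202 CPM in pericentral and at 180.5, 172 and 169 CPM in periportal fed cells. After 24 h it was at 217, 194 and 192 CPM in pericentral and 222, 217 and 230.5 CPM in periportal cells. All 24 h periportal libraries exceeded all fed ones, and in pericentral cells fed replicate 3, which was high in Saa1, reached the 24 h range. Averaged over the zones, Tfr2 rose by 0.39 on the log2 scale at 24 h (SE 0.10, edgeR adjusted p = 0.00797) in all 27 alternatives. The change was 0.41 (adjusted p = 0.0534) in pericentral and 0.36 (adjusted p = 0.0962) in periportal cells. With all libraries kept, the pericentral change was called by DESeq2 (adjusted p = 0.0336), by limma-voom (adjusted p = 0.0344) and with the replicate block (adjusted p = 0.0354). An edgeR fit of the periportal fed and 24 h groups only called the periportal change (adjusted p = 0.0244). Without pericentral fed replicate 3 the change was called in both zones, at 0.68 (adjusted p = 0.000536, range 0.000536 to 0.237) and 0.36 (adjusted p = 0.0129, range 0.0129 to 0.213). Without that library Tfr2 was also higher in periportal cells in the fed state (0.47, adjusted p = 0.0122, range 0.0122 to 0.869) and over the 3 states (0.28, adjusted p = 0.00182, range 0.00182 to 0.256), and the 8 h change over both zones was 0.25 (adjusted p = 0.0148, range 0.0148 to 0.736) in place of 0.12.

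Hfe (chr13:23702034-23710854, minus strand), the haemochromatosis protein that pairs with both transferrin receptors, ranged only from 29.2 to 44.7 CPM over all libraries. Averaged over the zones Hfe fell by 0.22 at 24 h (SE 0.08, edgeR adjusted p = 0.0491), but this call was lost in 21 of 27 alternatives, with adjusted p from 0.0112 to 0.122. Without pericentral fed replicate 1 the pericentral change alone was called (-0.41, adjusted p = 0.0273, range 0.0273 to 0.326).

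Id1 (chr2:152736251-152737410) and Smad7 (chr18:75367529-75395935) are direct targets of BMP and SMAD signalling, Id1 an inhibitor of helix-loop-helix factors and Smad7 an inhibitor of the pathway itself. Id1 was near the floor, with 11 to 168 estimated counts per library. Fed pericentral libraries held 0.830, 0.591 and 1.05 CPM and fed periportal ones 2.44, 3.60 and 1.58 CPM. After 8 h Id1 was at 0.451, 1.40 and 2.90 CPM in pericentral and at 1.57, 7.47 and 2.94 CPM in periportal cells. After 24 h it was at 4.02, 3.09 and 2.17 CPM in pericentral and at 1.01, 1.46 and 1.24 CPM in periportal cells. The zones thus did not overlap in the fed state, with periportal higher, nor at 24 h, with pericentral higher.

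Id1 rose by 1.91 from fed to 24 h in pericentral cells (SE 0.60, edgeR adjusted p = 0.0313). This call was lost without any 1 of the pericentral fed libraries (log2 fold change 1.71 to 2.11) or without pericentral 24 h replicate 1 (1.66) or replicate 2 (1.91), by limma-voom and without the filter, and its adjusted p ranged from 0.00432 to 0.11 over 27 alternatives. Without the 3 libraries high in Saa1 the pericentral rise was 2.11 (adjusted p = 0.0387). In periportal cells the 24 h change of Id1 was -1.03 (SE 0.59, adjusted p = 0.249). The difference of the 2 changes was -2.93 (SE 0.83, unadjusted p = 0.00294), and with 12477 genes tested its edgeR adjusted p was 0.345. DESeq2 called Id1 higher in periportal cells in the fed state (1.62, adjusted p = 0.0484, range 0.0215 to 0.318).

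Smad7 was at 3.53, 5.51 and 6.42 CPM in pericentral and at 7.84, 9.11 and 9.81 CPM in periportal fed cells. After 8 h the values were 5.86, 10.5 and 14.5 CPM in pericentral and 8.08, 20.4 and 13.4 CPM in periportal cells, and after 24 h 14.3, 5.41 and 8.35 CPM and 8.33, 4.86 and 6.07 CPM. The zones did not overlap in the fed state, and within each zone the 3 states overlapped. Averaged over the zones Smad7 rose by 0.82 at 8 h (SE 0.28, edgeR adjusted p = 0.0442). This call was lost in 14 of 27 alternatives (adjusted p from 0.0119 to 0.122). Without the 3 libraries high in Saa1, Smad7 rose by 1.06 (adjusted p = 0.0293). The difference of its 24 h changes had the sign seen for Hamp and Id1 (-1.35, SE 0.58, unadjusted p = 0.034, edgeR adjusted p = 0.6), in comparisons that share their libraries.

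Endothelial cells also express Id1 and Smad7 and are the source of Bmp2 and Bmp6. Bmp6 was at 0.168 to 2.33 CPM and Bmp2 at 0.0410 to 2.003 CPM, both highest in periportal 8 h replicate 3, the library with the highest endothelial sum (35.1 CPM). Id1 and Smad7 were highest in periportal 8 h replicate 2, whose endothelial sum was 7.78 CPM. In the fed state the endothelial sum was 4.29 to 6.54 CPM in pericentral and 12.4 to 15.4 CPM in periportal libraries, without overlap and in the direction of Id1 and Smad7. At 24 h it was 5.24 to 12.0 CPM in pericentral and 4.25 to 19.4 CPM in periportal libraries. All 8 endothelial genes, Bmp2 and Bmp6 among them, were in the table, 7 passed the filter, and none was at 0 in every library. The part of these markers in the Id1 and Smad7 values was not tested.

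**Figure D3:**
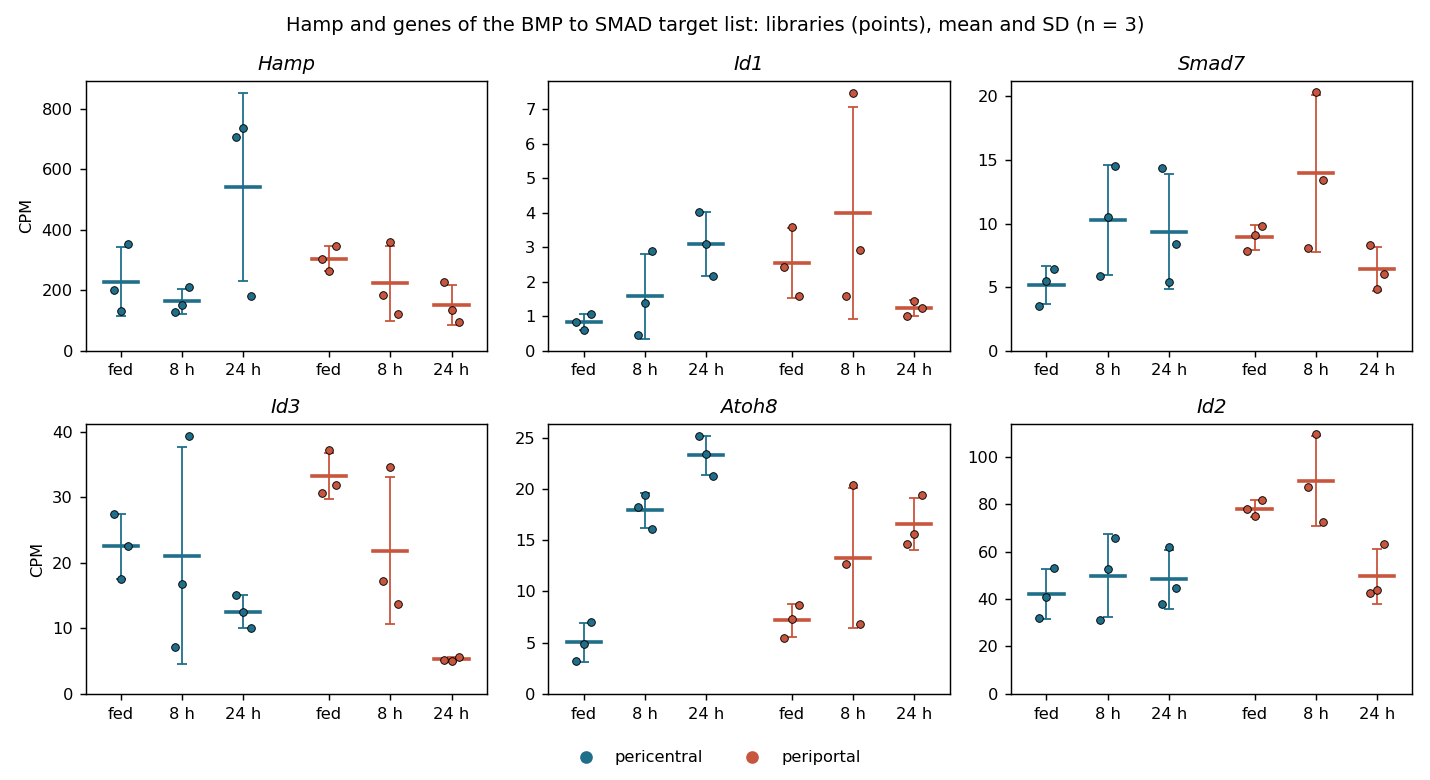
CPM (y axis) of Hamp, Id1, Smad7 and 3 further BMP targets, Id3, Atoh8 and Id2, in each of the 18 libraries (points) by state and zone, with mean (bar) and SD (whiskers) of 3 libraries. Id3 fell to 4.95 to 5.70 CPM in periportal 24 h cells while Atoh8 rose in both zones.

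Genes that carry the BMP signal were read from a list of 11, all tested. At 24 h against fed, averaged over the zones, 3 were called higher and 3 lower (34.5% of all genes were called), with a list median of 0.14 against 0.01 over all genes tested. With the 3 libraries high in Saa1 left out, 1 was called higher and 3 lower (28.3% of all genes were called in that fit). The BMP type I receptor Acvr1 fell by 0.72 (SE 0.10, edgeR adjusted p = 2.67e-05), the BMP co-receptor hemojuvelin, Hjv, by 0.36 (adjusted p = 0.00295) and Smad5, which carries the signal to the nucleus, by 0.27 (adjusted p = 0.00791). Acvr1 was at 13.8 ± 0.153 CPM in pericentral fed and 8.06 ± 0.0459 CPM in pericentral 24 h cells (SD, n = 3 each). Neogenin, Neo1, which binds hemojuvelin, rose by 0.67 in periportal cells at 24 h (adjusted p = 0.00149). Tmprss6, the protease that removes hemojuvelin and so lowers hepcidin, was not called in any comparison and kept group means of 353 to 423 CPM.

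The 4 further BMP targets did not move as one. Atoh8 rose by 1.71 (SE 0.23, adjusted p = 3.89e-05) and Id3 fell by 1.75 (SE 0.34, adjusted p = 0.00132) at 24 h over both zones by edgeR. Fed and 24 h means of Atoh8 were 5.04 ± 1.92 and 23.3 ± 1.94 CPM for the pericentral zone, and 7.18 ± 1.62 and 16.5 ± 2.53 CPM for the periportal zone (SD, n = 3 each). Those of Id3 were 22.5 ± 4.94 and 12.6 ± 2.50 CPM, and 33.2 ± 3.52 and 5.28 ± 0.385 CPM. Id2 was higher in periportal cells over the 3 states by 0.59 (adjusted p = 0.0119). Across the 18 libraries, Id1 correlated with Smad7 at r = 0.73 (0.64 within groups), Hamp with Id1 at r = 0.54 (0.47) and Hamp with Smad7 at r = 0.26 (0.36), as a description of log2 CPM in libraries that share groups.

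Of the 6 genes of IL-6 to STAT3 signalling, 3 were called higher and 1 lower at 8 h against fed over both zones (26.4% of all genes were called), and 1 higher and 1 lower at 24 h (34.5%). The IL-6 receptor gene Il6ra rose by 1.43 (SE 0.21, edgeR adjusted p = 8.6e-05) at 24 h, from 14.8 ± 4.47 to 43.3 ± 8.78 CPM in pericentral cells (SD, n = 3 each). At 8 h Stat3 rose by 0.61 (adjusted p = 0.00594) and Il6st, the shared signalling chain gp130, by 0.29 (adjusted p = 0.0262). Pericentral 8 h replicate 1, the library highest in Saa1, held 189.6 CPM of Stat3 against 78.9 to 99.6 CPM in the other 8 h libraries. Without the 3 libraries high in Saa1, the rise of Stat3 was 0.40 (adjusted p = 0.00409) and Il6st, at 0.22 (adjusted p = 0.118), was not called. Jak1, the kinase on that chain, was higher in periportal cells over the 3 states by 0.33 (adjusted p = 8.08e-05). Of 12 acute phase genes, 3 were called at 8 h, near the share of all genes (26.4%). These fibrinogen genes, Fga, Fgb and Fgg, rose by 1.44 (adjusted p = 0.000203), 1.17 (adjusted p = 0.000728) and 1.43 (adjusted p = 7.1e-05). Pericentral 8 h replicate 1 stood apart here too, with 12200 CPM of Fga against 4286 and 4404 CPM in the other pericentral 8 h libraries. Without the 3 libraries high in Saa1, the rises of Fga, Fgb and Fgg were 1.23, 0.93 and 1.23, all called. At 24 h over both zones, 0 of the 12 were called with all libraries (34.5% of all genes were called). Without those 3 libraries, 3 were called higher and 0 lower at 24 h (28.3% of all genes were called in that fit). The list median at 8 h was 0.99 with and 0.48 without those libraries, and at 24 h 0.29 and 0.44, against 0.01 over all genes tested at either time with all libraries.

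Transcription factors known to act on the hepcidin gene or in fasting formed a list of 8. At 24 h over both zones 6 were called higher and 1 lower (34.5% of all genes were called). The numbers were the same without the 3 libraries high in Saa1 (28.3% of all genes were called in that fit). The list median with all libraries was 0.53, against 0.01 over all genes tested. Foxo1 rose by 1.32 (SE 0.12, edgeR adjusted p = 6.5e-07), Ppargc1a, the coactivator of gluconeogenic genes, by 1.68 (SE 0.17, adjusted p = 1.83e-06), Cebpb by 1.05 (adjusted p = 0.000129) and Hnf4a by 0.56 (adjusted p = 0.000243). Creb3l3, the liver CREBH factor that is known to bind the Hamp promoter under stress, rose by 0.49 (SE 0.08, adjusted p = 0.000253). Cebpa, a known activator of the hepcidin gene and the 1 called lower, fell by 0.56 (SE 0.16, adjusted p = 0.0123) and was named after its value was seen. Group means of Creb3l3 were 237, 256 and 316 CPM in pericentral and 265, 334 and 393 CPM in periportal cells (fed, 8 h, 24 h). Creb3l3 and Ppargc1a thus rose in both zones from fed to 24 h, by 0.41 and 1.68 in pericentral and by 0.57 and 1.68 in periportal cells. The Hamp values of the same comparisons were 1.25 in pericentral and -1.01 in periportal cells, neither called. A link between these factors and Hamp was not tested.

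Iron storage fell on the ferritin pair, Fth1 (chr19:9980598-9985098) for the heavy chain, which oxidises iron, and Ftl1 (chr7:45457944-45459884, minus strand) for the light chain, which helps form the mineral core. Fth1 ranged only from 1025 to 1471 CPM, and its log2 fold changes from -0.11 to 0.23 were not called. Ftl1 was at 3754, 3355 and 3428 CPM in pericentral fed cells and at 2176, 2495 and 2952 CPM after 8 h, with no overlap. In periportal cells it was at 3637, 3316 and 2818 CPM fed and at 2421, 2399 and 3127 CPM after 8 h, which overlapped. Ftl1 fell by 0.38 over both zones at 8 h (SE 0.11, edgeR adjusted p = 0.0121) and by 0.47 in pericentral cells (SE 0.15, adjusted p = 0.0459). The pericentral call was lost in 15 of 28 alternatives (adjusted p 0.00817 to 0.243), and the call over both zones was lost in 1, without the 3 libraries high in Saa1 (-0.34, adjusted p = 0.0516, range 0.000984 to 0.0516). At 24 h the changes of Ftl1 were -0.20 and -0.27 in the 2 zones, not called. Of its 31-base words, 92% occur in 33 other genes, mostly pseudogenes. Those of the table that share 18.1% or more of the words took at most 36 counts a library, against 52395 to 108614 for Ftl1. The gene that shares most, Ftl1-ps1 (78.1%), is not in the table, and genes that share less were not looked up.

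Genes that handle stored iron moved in both directions, with 2 of the 6 tested called higher and 2 lower at 24 h over both zones (34.5% of all genes were called). Ncoa4, which delivers ferritin to lysosomes so that its iron is released, rose by 0.69 (SE 0.14, edgeR adjusted p = 0.00116), and the iron chaperone gene Pcbp2 by 0.77 (SE 0.12, adjusted p = 9.59e-05). Its relative Pcbp1 fell by 0.36 at 8 h (adjusted p = 0.000218). Fbxl5, which marks iron regulatory protein 2 for degradation when iron is present, was lower in periportal cells over the 3 states by 0.62 (SE 0.06, adjusted p = 1.64e-06). Ireb2, the gene of that regulatory protein, was not called in any comparison and had group means of 75.4 to 93.9 CPM.

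Of 17 tested genes of iron uptake and transport, 5 were called at 8 h over both zones, all higher (26.4% of all genes were called), and at 24 h 2 were called higher and 2 lower (34.5%). Leaving out the 3 libraries high in Saa1 gave 3 higher and 1 lower at 8 h (21.8% of all genes were called in that fit). Slc39a8, a transporter of zinc, manganese and iron, rose by 0.65 at 8 h (SE 0.07, edgeR adjusted p = 2.33e-06). Slc11a2 (DMT1), which moves iron out of endosomes, fell by 0.70 at 24 h (SE 0.09, adjusted p = 1.17e-05). Over the 3 states the metalloreductase Steap2 was higher in periportal cells by 1.33 (adjusted p = 2.55e-06) and the haem transporter Slc48a1 was lower there by 0.64 (adjusted p = 1.05e-05). Trf, the gene of transferrin, had group means of 11810 to 16590 CPM and was higher in periportal cells over the 3 states by 0.36 (adjusted p = 0.0442), with log2 fold changes of -0.12 to 0.08 from fed to 8 h or 24 h in either zone. Of 9 genes of mitochondrial iron, 2 were called at 8 h over both zones, both lower (26.4% of all genes were called). The importer mitoferrin 1, Slc25a37, fell by 1.11 (SE 0.14, adjusted p = 2.57e-05) and Glrx5, of iron-sulphur cluster assembly, by 0.33 (adjusted p = 0.00174). At 24 h 2 were called higher and 1, Slc25a37, lower (34.5%), and Slc25a37 was also called lower in each zone. The co-chaperone Hscb, also of iron-sulphur cluster assembly, rose by 0.53 at 24 h (adjusted p = 0.024) and mitoferrin 2, Slc25a28, by 0.30 (adjusted p = 0.0255).

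**Figure D4:**
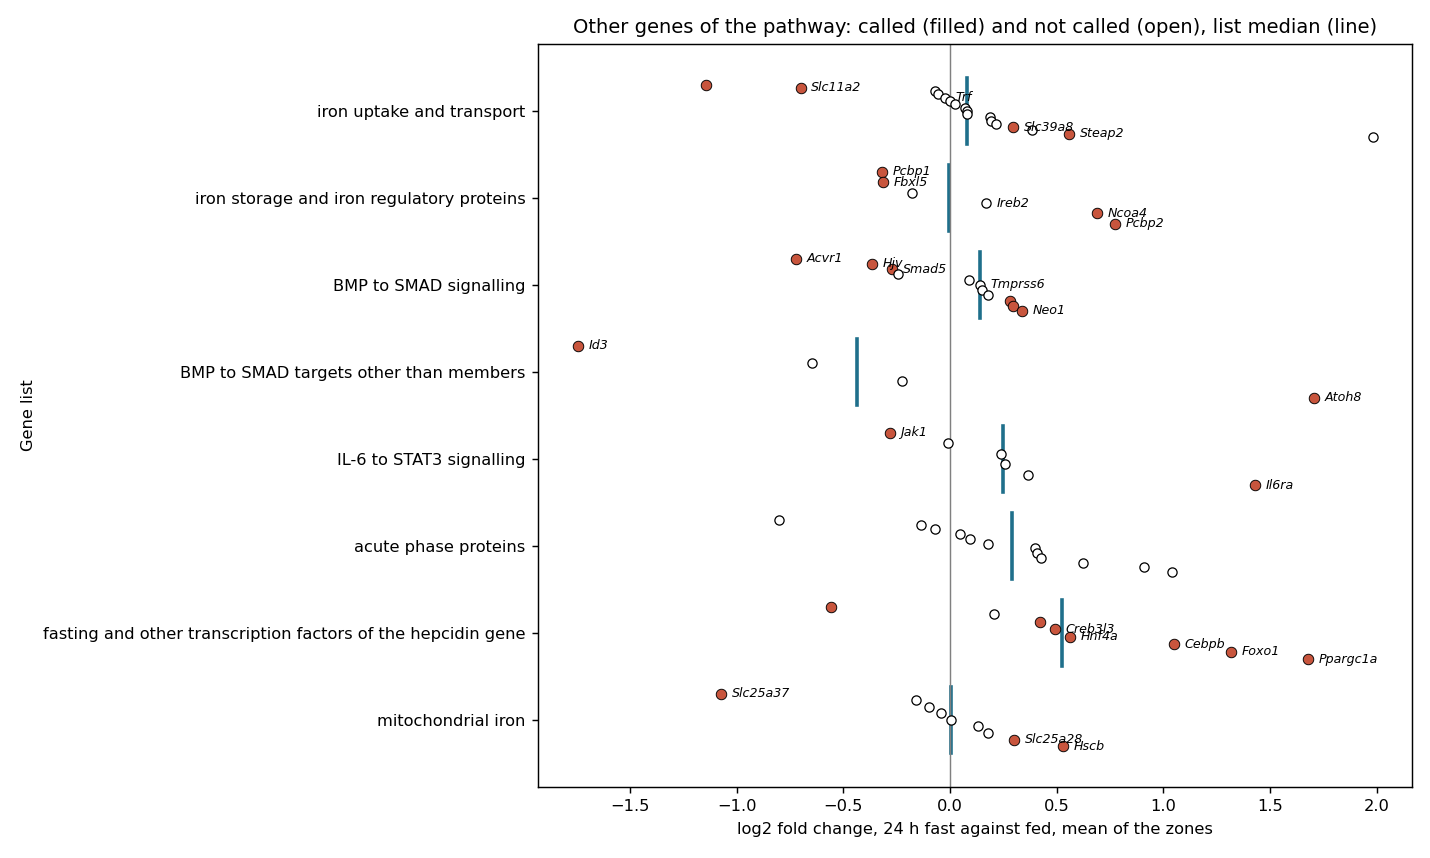
Log2 fold change from fed to 24 h, mean of the zones (x axis), for each tested gene of 8 lists (rows), filled where the edgeR adjusted p was under the threshold and open where not, with the list median as a line. Medians ran from -0.44 for the 4 BMP targets to 0.53 for the 8 transcription factors, against 0.01 over all genes tested.

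Counted over the 10 genes, the calls were set beside the share of all 12477 genes called in the same comparison. From fed to 8 h, 2 of 10 were called in pericentral cells (Tfrc and Ftl1, both lower; 13.8% of all genes) and 1 of 10 in periportal cells (Tfrc, lower; 14.4%). From fed to 24 h, 3 of 10 were called in pericentral cells (Slc40a1 and Id1 higher, Tfrc lower; 21.8%) and 1 of 10 in periportal cells (Tfrc, lower; 19.6%). Averaged over the zones, 4 of 10 were called at 8 h (Slc40a1 and Smad7 higher, Tfrc and Ftl1 lower; 26.4%) and 4 of 10 at 24 h (Slc40a1 and Tfr2 higher, Tfrc and Hfe lower; 34.5%). Between zones, Slc40a1 was the 1 of 10 called at 8 h (7.14%) and over the 3 states (20.3%). These shares lie close to the background, so it is the single genes and their sizes, not the number of calls, that the comparisons describe.

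No gene of the 10 was called by edgeR in 6 comparisons. Between zones in the fed state (8.01% of all genes called) 2 of the 10 had an unadjusted p under 0.05, DESeq2 called 2 and limma-voom 0. Between zones at 24 h (4.17%) 2 had such a p, DESeq2 called 1 and limma-voom 0. Between 24 h and 8 h, 2 had such a p in pericentral cells (9.71%) and 3 in periportal cells (7.46%), and DESeq2 called 2 in each and limma-voom 0. For the difference between zones in the change from fed, 1 had such a p at 8 h (0% of all genes called). At 24 h 3 had such a p (0.016%), and both other tools called 0 at either time. Over all genes tested, the share with an unadjusted p under 0.05 was 21% between zones fed and 16.8% at 24 h. Between 24 h and 8 h that share was 24.2% in pericentral and 22.3% in periportal cells. For the difference of the changes it was 5.45% at 8 h and 7.71% at 24 h.

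The genes most like each of 4 members were taken by Pearson's r of log2 CPM over the 18 libraries among 8050 genes with a mean of at least 5 CPM, as a description with no test. For Tfrc they were Hspa5, a chaperone of the endoplasmic reticulum, at r = 0.95, then Uso1 (0.93), Magt1 (0.92), Manf (0.92) and Tcaim (0.92). For Slc40a1 they were Mfsd2a, a transporter of lysophospholipids, at r = 0.90 and Apoa5, an apolipoprotein of triglyceride metabolism, also at 0.90, then Ybx3 (0.89), Bmp2k (0.88) and Abca6 (0.88). For Hamp the closest was Prpf8 at 0.71, and Fbxo3 (0.66), Wrn (0.66) and Ssbp3 (0.65) were also among the first 5. For Id1 the closest of 8051 genes was Smad7 at 0.73, then Rhbdf2, Sdha, Fzd4 and P2ry2 at 0.71 to 0.69. No gene followed Hamp as closely as the first 5 followed Tfrc or Slc40a1.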

How the data were processed

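The authors deposited a table of estimated counts per Ensembl gene for the 18 libraries. The submitters' processing notes name kallisto 0.46.0 and the genome build mm10, while the annotation, the summing to genes and the use of strand are not given in the sources used here. Overlapping and antisense genes could therefore not be told apart. Of the values, 67.5% to 70.5% per library were whole. They were rounded to whole numbers and tested in R 4.3.3 with edgeR 4.0.16 (quasi-likelihood test, robust, TMM scaling, filterByExpr) in 1 fit of all 18 libraries with 1 coefficient per group and no covariate. From it 14 contrasts were taken, and p-values were adjusted by Benjamini-Hochberg over the 12477 genes tested, which held at least 99.95% of the counts of every library. Calls were made at an adjusted p below 0.05. SE is the log2 fold change divided by the square root of F. Pairs of replicates differed by more than sampling noise (chi-square per gene 35.0 to 117). Each group has 3 libraries, which limits the precision of every value.

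Alternatives were DESeq2 1.42.0, limma-voom (limma 3.58.1), DESeq2 size factors, other filters, scaling without the 20 most abundant genes, the replicate number as a block, fits of only the groups compared, and each library left out. After the data were seen, 2 more were added: counts of genes that share sequence summed, and the 3 libraries with over 1000 CPM of Saa1 left out. The fit was tested on simulated data. The 10 genes and all gene lists were chosen with earlier results of these data known. From each list, genes called in at least 1 contrast were named, up to the 4 with the lowest adjusted p, plus Creb3l3, Ppargc1a, Tmprss6, Trf and Ireb2. Likeness was taken for Hamp, Tfrc, Slc40a1 and Id1, and 1 of the genes it gave is not reported here. Symbols were matched through a table of gene names (27566 of 28030 identifiers), and Hjv through its older symbol in RefSeq. Sequences were read by scripts (biopython 1.88) from RefSeq and GENCODE files of GRCm38, which is the assembly called mm10.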

Additional observations from a re-analysis of the deposited data

How the results depend on the processing

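Of the 17 member calls, 9 held in all alternatives: Tfrc lower in all but the periportal 8 h comparison, Slc40a1 higher at 24 h in pericentral cells, at 24 h over both zones and in periportal cells over the 3 states, and Tfr2 higher at 24 h over both zones. No called value changed sign. The number of the 10 genes called moved by over 1.5 times in these cases. Without a filter beyond 1 count, it was 0 between zones at 8 h, 1 for pericentral 8 h against fed and 2 for 8 h against fed over both zones. By DESeq2 it was 2 between zones in the fed state, at 8 h and over the states, 1 between zones at 24 h, and 2 each for 24 h against 8 h in either zone and for periportal 8 h against fed. By limma-voom it was 2 for 8 h against fed over both zones. With only the groups compared, it was 3 between zones in the fed state, 0 between zones at 8 h and 3 for periportal 24 h against fed. Without the 3 libraries high in Saa1, it was 2 between zones in the fed state, at 8 h and over the states, 1 for pericentral 8 h and 2 for periportal 8 h and periportal 24 h against fed. The cause was not tested. Leaving out 1 library at a time gave 3 to 4 (24 h) and 2 to 4 (8 h) over both zones, 2 to 4 (24 h), 1 to 2 (8 h) and 0 to 1 (24 h against 8 h) in pericentral cells, 1 to 2, 0 to 2 and 0 to 1 in periportal cells, and between zones 0 to 1 (fed), 0 to 2 (8 h), 0 to 1 (24 h), 1 to 2 (mean of the states) and 0 to 0 for both differences of change. Over all genes tested, counts moved by over 1.5 times for 24 h against 8 h in pericentral (1212, 504 to 1580) and periportal cells (931, 335 to 1367), zones at 24 h (520, 252 to 821), zones at 8 h (891, 450 to 1275), zones fed (1000, 614 to 1315), periportal 24 h (2446, 1512 to 2750), periportal 8 h (1798, 1081 to 2147), pericentral 8 h (1727, 1000 to 2067) and the difference of the 24 h changes (2, 0 to 38) or the 8 h changes (0, 0 to 6). Scaling moved the median of all genes by -0.02 to 0.02.

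Same-numbered libraries of different groups correlated at -0.12 to 0.21 (mean 0.03, 7 of 45 pairs over 0.1, against 3 of 90 pairs of other numbers). Between the zones of 1 state, 3 of 9 same-numbered pairs were over 0.1 (-0.01 to 0.17) against 0 of 18 others. Same-numbered pairs were thus more often over 0.1, which does not settle whether they share a mouse. The labels state no pairing, and the main fit used no block. With the replicate block, Hfe at 24 h (-0.22, adjusted p = 0.0578) and Smad7 at 8 h (0.81, adjusted p = 0.0634) over both zones were lost, Tfr2 in pericentral cells at 24 h was gained (0.43, adjusted p = 0.0354), and no other call of the 10 genes changed. Id1 had 11 to 168 counts a library, so counting error adds to its spread, and 3 libraries a group limit every gene.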

Other observations

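Scara5, a receptor that takes up ferritin, was singled out after its values were seen. Fed libraries held 1.52, 3.03 and 8.88 CPM of Scara5 in pericentral and 1.77, 0.799 and 0.735 CPM in periportal cells. After 8 h the values were 58.6, 60.8 and 28.9 CPM in pericentral and 5.49, 42.7 and 50.9 CPM in periportal cells, and after 24 h 13.9, 0.809 and 3.02 CPM and 13.6, 5.82 and 19.0 CPM. Every 8 h pericentral library exceeded every fed one, and the same held in periportal cells. Scara5 rose at 8 h by 3.47 on the log2 scale in pericentral (SE 0.97, edgeR adjusted p = 0.0298) and by 4.91 in periportal cells (SE 1.12, adjusted p = 0.0105), and at 24 h it was called in periportal cells (3.54, SE 1.12, adjusted p = 0.0407) and missed the threshold over both zones (1.98, adjusted p = 0.0537). Without the 3 libraries high in Saa1, Scara5 at 8 h was called in periportal cells (4.91, adjusted p = 0.0163) and over both zones (4.61, adjusted p = 0.00355), but not in pericentral cells (4.31, adjusted p = 0.0712), nor in periportal cells at 24 h (3.13, adjusted p = 0.123). The test of a zone difference in the 24 h change gave 3.12 (edgeR adjusted p = 0.654). In the same 8 h libraries Tfrc, the receptor for transferrin-bound iron, was below all fed libraries.

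Steap3, the reductase that prepares iron for export from endosomes, was likewise picked after its values were seen. Steap3 rose at 8 h by 0.55 in pericentral (edgeR adjusted p = 0.033) and by 0.75 in periportal cells (adjusted p = 0.00516), and fell by 0.72 from 8 h to 24 h in periportal cells (adjusted p = 0.013).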
